A study of Mus musculus with 9 samples.

Results

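The cells described here were tumour cells of mouse mammary tumours with the highest summed level of 5 genes of secreted proteins, Ptgds, Clu, Clec3b, Aspn and Lum. Of 89147 cell barcodes, 58645 passed the limits on detected genes and mitochondrial UMIs, and 33853 of these were tumour cells. A tumour cell had at least 1 UMI (a counted RNA molecule) of Krt8, an epithelial keratin, or of H2BMc, the H2B–mCherry reporter carried by the injected cells. It had no UMI of Ptprc, a leukocyte gene, or of Pecam1, an endothelial gene. Cells with at least 2 UMIs in 3 or more of the mitotic genes Cdc20, Cenpa, Ccnb2, Ccnb1, Cdkn3 and Pttg1, 5371 in all, were left out. The UMIs of the 5 genes were summed per 10000 UMIs of the cell, and the top 15% over all libraries, 5078 cells, were taken as members. The other 28775 tumour cells were the comparison. The members were thus selected on measured values, so the levels of the 5 genes and of Krt8 and H2BMc are given as description, with no test. Their working label called these cells fibroblast-like. The markers were divided on that name, as shown further on. All 5 fibroblast markers that could be tested were higher than in other tumour cells, but type I collagen, Thy1 and Acta2 were far below the level of reporter-negative fibroblasts, so the cells are called matrix-rich tumour cells here.

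Cells of the non-metastatic 168FARN mammary tumour line were injected into the mammary fat pads of immunocompetent female BALB/c mice, and digested primary tumours, freed of debris and dead cells on a Percoll density gradient, were sequenced as 5′ single-cell libraries. There were 3 libraries of WT tumours, 3 of Kmt2c KO tumours and 3 of Kmt2d KO tumours, and all 3 groups carried the H2B–mCherry reporter. Each knockout was made by transient transfection of Cas9 with a pool of guide RNAs against the first exon of the gene and sorting of the transfected cells, and no independently made knockout lines are described for it. The libraries of a group therefore replicate the tumour and not the knockout, and p-values measure the spread between tumours only.

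Fibroblasts and some mesenchymal tumour cells build the extracellular matrix. Fibrillar collagens form its load-bearing fibres, small leucine-rich proteoglycans such as decorin, biglycan and lumican bind those fibres and regulate their assembly, and glycoproteins such as fibronectin link the matrix to cells. Kmt2c and Kmt2d encode histone methyltransferases that act mainly at enhancers, and the study compared tumours without either of them with WT tumours.

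The 9 libraries held 939 to 14525 kept cells and 21529691 to 125617312 UMIs. The mitochondrial limit removed 50.7, 26.6 and 68.5% of the barcodes in the WT libraries. It removed 12.98, 14.8 and 29.5% in Kmt2c KO and 27.2, 24.02 and 23.5% in Kmt2d KO. The WT libraries kept 939 to 2380 cells, those of Kmt2c KO 6024 to 11813 and those of Kmt2d KO 5997 to 14525. The part of these losses in the differences between genotypes, the share of matrix-rich cells among them, was not tested. Matrix-rich cells gave 1663866 to 16165657 UMIs per library, with a median per cell of 6315 to 15918 UMIs, against 4006 to 18303 in the other tumour cells. No doublets were removed. Of 84658 distinct barcode sequences 4365 occurred in more than 1 library, and 19 did so among the matrix-rich cells. Levels are given as UMIs per 1000000 (CPM) of all UMIs summed over the cells of that kind in that library. Library numbers only name the libraries. Kmt2d KO library 2 stood apart. Over 10921 genes its matrix-rich cells differed from the other Kmt2d KO libraries by a root mean square of 0.533 in log2 CPM, from WT by 0.600 and from Kmt2c KO by 0.403. In the other Kmt2d KO libraries the difference from WT was 0.395 and 0.402, and that from Kmt2c KO was 0.517 and 0.505. Gm364 showed the same order, with 48.6, 0 and 51.6 CPM in Kmt2d KO libraries 1 to 3, 53.0 to 64.3 CPM in WT and 0.592 to 0.607 CPM in Kmt2c KO. Counts of calls between genotypes are therefore given with and without this library, as are the values of the genes that turn on it. Other genes ran with its label, such as Grem1, a secreted growth factor antagonist, at 19.2, 20.4 and 20.4 CPM in Kmt2d KO libraries 1 to 3 and 3.94 to 5.74 CPM in Kmt2c KO. Its genotype label cannot be checked from these counts.

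The last cell inside the limit scored 18.2999 UMIs per 10000 and the first cell outside 18.2899, so the scores had no gap at the limit. The median score was 29.8 in matrix-rich cells and 2.76 in other tumour cells, the highest was 205.0, and 22.9% of all tumour cells scored 0. Of the matrix-rich cells, 20.9% lay within 1.2 times the limit. The sum rested on a median of 28 UMIs, with 2 as the lowest.

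As the choice of cells required, all 5 rule genes were higher in matrix-rich than in other tumour cells of each library. Clec3b, the gene of the plasminogen-binding protein tetranectin, had a lowest, median and highest library of 715, 1211 and 1668 CPM in matrix-rich cells and 22.8, 38.8 and 76.5 CPM in the others. Lum, the collagen-binding proteoglycan lumican, was at 252, 422 and 514 CPM against 4.65, 15.1 and 22.3 CPM. Clu, the secreted chaperone clusterin, was at 804, 1613 and 1918 CPM against 132, 288 and 383 CPM. Lum and Clec3b were thus rare in other tumour cells, while Clu was present in both. Aspn, the proteoglycan asporin, was at 145, 256 and 450 CPM against 19.1, 48.1 and 56.9 CPM, and Ptgds, prostaglandin D2 synthase, at 133, 307 and 502 CPM against 24.8, 49.7 and 76.0 CPM. Levels also differed by group among the matrix-rich cells. Clu was at 1723, 1613 and 1746 CPM in WT, 945, 804 and 1026 CPM in Kmt2c KO and 1739, 832 and 1918 CPM in Kmt2d KO. Aspn was at 387 to 450 CPM in WT, 145 to 191 CPM in Kmt2c KO and 236 to 278 CPM in Kmt2d KO.

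Different genes carried the score in different cells. Clu gave the most UMIs of the 5 in 49.2% of matrix-rich cells, and Clec3b in 28.5%. Lum led in 9.93%, Ptgds in 6.16% and Aspn in 1.56%, while 4.67% had a tie. In 34.1% of the cells 3 of the 5 genes were detected, in 26.1% there were 4, and in 8.72% all 5. Clu-led cells made up 51.3, 52.0 and 61.2% of the matrix-rich cells in the WT libraries, 33.4, 28.9 and 37.8% in the Kmt2c KO libraries and 52.4, 28.8 and 60.7% in the Kmt2d KO libraries. The set was thus a mixture, and Clu led less often in each Kmt2c KO library and in Kmt2d KO library 2 than in the other libraries, which was not tested because the choice of cells used the gene.

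The subsets also differed in genes outside the rule, as means over libraries. Dpt, encoding the matrix protein dermatopontin, was at 116 ± 58.2 CPM (SD, n = 9 libraries) in Clec3b-led cells and at 36.4 ± 16.2 CPM in Clu-led cells. Dcn, encoding decorin, was at 425 ± 280 CPM in Lum-led cells (n = 6 libraries with at least 20 such cells), 151 ± 55.4 CPM in Clec3b-led cells and 179 ± 92.4 CPM in Clu-led cells. Bgn, encoding biglycan, was at 2184 ± 710 CPM in Clec3b-led cells and 1416 ± 480 CPM in Clu-led cells. The reporter H2BMc was between 65.5 and 71.7 CPM in the Clu-, Clec3b-, Lum- and Ptgds-led cells. Aspn-led cells were numerous enough in 1 library only, where Dcn was at 444 CPM. Mean Dpt was thus highest in Clec3b-led cells and mean Dcn was high in Lum- and Aspn-led cells, although the Lum-led range of 236 to 939 CPM overlapped the Clu-led range of 90.9 to 386 CPM. These are descriptions of subsets chosen on their values.

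The first question was how much of each tumour these cells made up. In the WT libraries 191 of 726, 527 of 1649 and 121 of 497 tumour cells were matrix-rich, which is 26.3, 32.0 and 24.3%. The Kmt2c KO libraries had 497 of 6965, 570 of 5133 and 315 of 3476, or 7.14, 11.1 and 9.06%. In the Kmt2d KO libraries 1000 of 3973, 156 of 3814 and 1701 of 7620 cells were matrix-rich, or 25.2, 4.09 and 22.3%. The WT and Kmt2c KO ranges did not overlap, and Kmt2d KO libraries 1 and 3 lay near WT while library 2 had the lowest share of all.

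The mean share was 27.5 ± 3.95% in WT tumours, 17.2 ± 11.4% in those of Kmt2d KO and 9.10 ± 1.98% in those of Kmt2c KO (SD, n = 3 each). Over the 3 groups the Kruskal-Wallis statistic had an exact permutation p of 0.1. The difference of -18.4 percentage points between Kmt2c KO and WT had a two-sided exact permutation p of 0.1 (0.3 adjusted over 3 pairs), the smallest that 3 against 3 libraries allow. For Kmt2d KO against WT the difference was -10.3 points (exact permutation p = 0.2, adjusted 0.3), and between the knockouts it was 8.09 points (exact permutation p = 0.4, adjusted 0.4). Without Kmt2d KO library 2 the mean of Kmt2d KO was 23.7% and the exact permutation p over the groups was 0.025. That library was singled out after its values were seen. Without each of the other libraries in turn the exact permutation p was 0.075 to 0.221. Thinning to 2000 UMIs left out the 3168 tumour cells under that depth, here and in all later results on thinned cells. Kmt2d KO library 3 kept 5264 of its 7620 tumour cells. With thinned cells the means of WT, Kmt2c KO and Kmt2d KO were 26.99, 9.48 and 17.8% (exact permutation p = 0.168). Requiring both H2BMc and Krt8 in a tumour cell gave 25.4, 7.59 and 18.7% (exact permutation p = 0.296), and Kmt2d KO against WT then had an exact permutation p of 0.7.

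**Figure D1:**
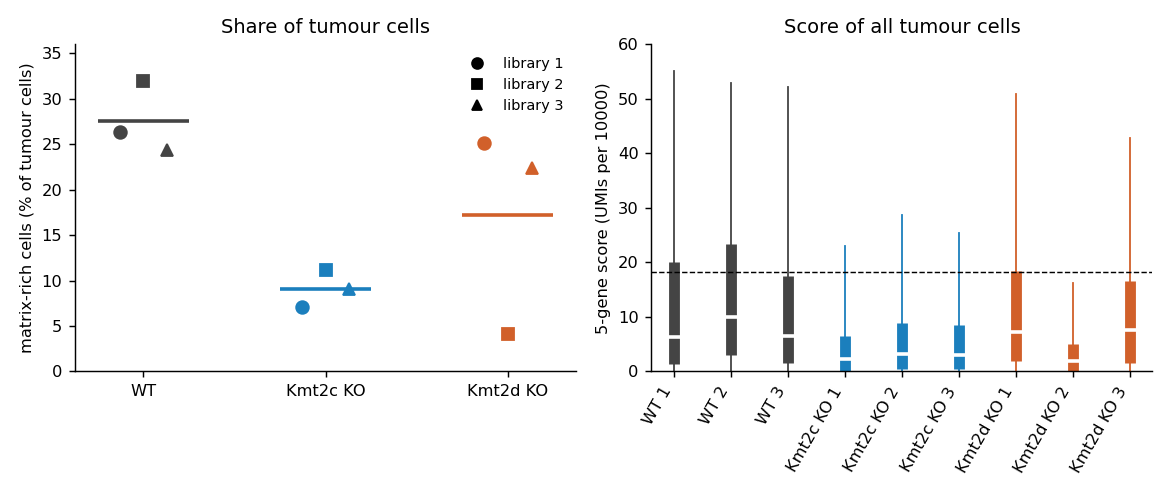
Left: matrix-rich cells in percent of tumour cells (vertical axis) in the 9 libraries, with the group mean as a line. Right: the 5-gene score in UMIs per 10000 for each library as 5 to 95% (thin line), 25 to 75% (bar) and median (white tick), with the limit dashed at 18.3. The WT libraries sit at 24.3 to 32.0%, the Kmt2c KO libraries at 7.14 to 11.1%, and Kmt2d KO library 2 at 4.09%, apart from the other Kmt2d KO libraries.

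The level of the tumour reporter was near that of the other tumour cells, but the reporter helped to admit cells of both kinds. An H2BMc UMI was found in 42.6% of matrix-rich and 40.9% of other tumour cells, and a Krt8 UMI in 88.8 and 90.8%. Cells without an H2BMc UMI were admitted on Krt8 alone. H2BMc had a lowest, median and highest level of 56.5, 72.5 and 83.1 CPM over the 9 libraries in matrix-rich cells and 43.5, 63.2 and 96.6 CPM in other tumour cells. Krt8 was at 177, 296 and 391 CPM against 254, 481 and 619 CPM, and was the lower in matrix-rich cells in all 9 libraries. Krt18, its usual keratin partner, was at most 0.601 CPM in matrix-rich cells and 2.21 CPM in other tumour cells. Of the basal mammary markers Krt5, Krt14, Krt17 and Trp63, no UMI was found in the matrix-rich cells. None of 10 other epithelial genes, among them Epcam, Cdh1 and Krt18, had enough UMIs in tumour cells of either kind to be tested.

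The summed CPM of 8 fibroblast markers (Col1a1, Col1a2, Col3a1, Dcn, Pdgfra, Dpt, Fap and Thy1) was 424 to 1079 in matrix-rich cells and 108 to 259 in other tumour cells, and 1836 to 27685 in reporter-negative fibroblasts. The latter were 793 kept cells with no UMI of Krt8, H2BMc, Ptprc or Pecam1 and at least 3 of the genes Col1a1, Col1a2, Col3a1, Dcn, Pdgfra and Dpt detected, so their levels of these 6 genes were partly set by the choice. Within libraries the sum was higher in matrix-rich than in other tumour cells by 2.05 ± 0.18 on the log2 scale (SD, n = 9), in 9 of 9 libraries. The two-sided exact sign-flip permutation p was 0.00391, the smallest for 9 libraries (0.0117 adjusted over 12 measures). The sum was made up mainly of Col3a1, Dcn, Pdgfra and Dpt, whereas type I collagen and Thy1 added little.

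Col1a1, encoding the main chain of type I collagen, was at 7.92, 28.7 and 49.3 CPM (lowest, median and highest library) in matrix-rich cells, 5.96, 9.39 and 12.3 CPM in other tumour cells and 263, 2092 and 8350 CPM in reporter-negative fibroblasts. Col1a2, its partner chain, was at 0.198, 0.742 and 19.7 CPM in matrix-rich cells and 123, 1318 and 4940 CPM in the fibroblasts. Thy1, a fibroblast surface protein, was at 0 to 3.57 CPM against 56.5 to 582 CPM. Acta2, the smooth muscle actin of myofibroblasts, had 3 UMIs in all matrix-rich cells and 29.8 to 372 CPM in the fibroblasts. The ranges of matrix-rich cells and fibroblasts did not overlap for these 4 genes. Pdgfra, a fibroblast receptor for platelet-derived growth factor, was nearer, at 129, 204 and 243 CPM against 204, 275 and 341 CPM, with overlapping ranges. Thy1 and Acta2 took no part in choosing the fibroblasts, whereas Col1a1, Col1a2 and Pdgfra did. The fibroblasts also held mural markers, which summed to 400 to 1369 CPM, with Rgs5, a pericyte gene, at 89.2 to 867 CPM against at most 0.601 CPM in matrix-rich cells. All 5 mural markers, Acta2 among them, were called lower in matrix-rich cells than in the fibroblasts, and the part of mural RNA in the differences from the fibroblasts was not tested.

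Other cell types were checked in the same way. Mural markers summed to 72.8 to 166 CPM against 30.4 to 57.0 CPM in other tumour cells, a log2 difference of 1.47 ± 0.35 with 9 of 9 libraries higher (exact sign-flip permutation p = 0.00391, adjusted 0.0117), almost all of it Pdgfrb. Endothelial markers summed to 393 to 442 CPM against 221 to 293 CPM, a log2 difference of 0.71 ± 0.17 with 9 of 9 higher (exact sign-flip permutation p = 0.00391, adjusted 0.0117), almost all of it Cd34, a surface sialomucin also found on fibroblasts, at 391.9, 412 and 437 CPM against 210, 244 and 288 CPM. Macrophage markers summed to 14.4 to 98.6 CPM against 13.5 to 102 CPM, higher in 5 of 9 libraries (exact sign-flip permutation p = 0.941, adjusted 0.973). Lymphocyte markers did not exceed 1.80 CPM, and Adipoq, Cidec and Sox10 had no UMI. At 2000 UMIs a cell, matrix-rich cells had a median of 25.8 ± 14.8 more detected genes (9 of 9 libraries, exact sign-flip permutation p = 0.00391, adjusted 0.0117). The median mitochondrial share differed by -0.035 ± 0.554 percentage points (exact sign-flip permutation p = 0.859, adjusted 0.973). In Kmt2d KO library 3 the matrix-rich cells were the deeper, with a median of 9809 against 4006 UMIs.

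**Figure D2:**
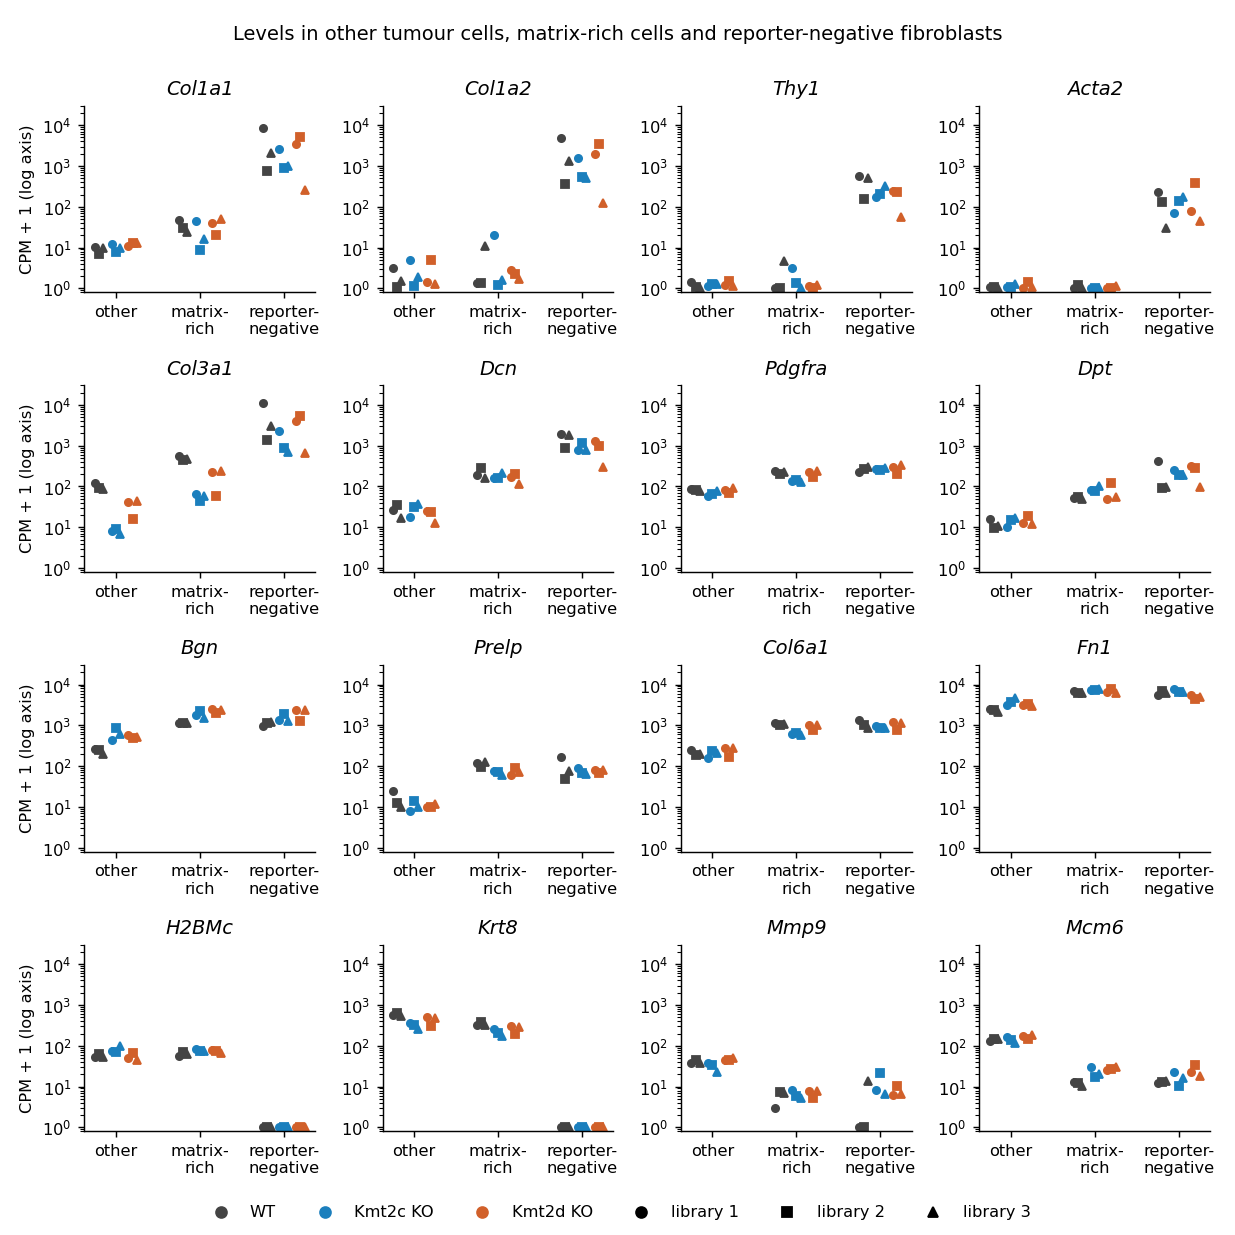
Level of 16 genes in CPM (log axis) in each of the 9 libraries for matrix-rich tumour cells, other tumour cells and reporter-negative fibroblasts. Matrix-rich cells have Bgn at 1112 to 2488 CPM and Dcn at 117 to 278 CPM, above the other tumour cells in 9 of 9 libraries, while Col1a1 stays at 7.92 to 49.3 CPM against 263 to 8350 CPM in the fibroblasts.

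Matrix-rich and other tumour cells of the same library were then compared over 11864 genes, the 15 genes of the rule left out. Because the cells were chosen on values of the same cells, these calls describe which genes went with the 5 rule genes. In all, 1228 genes (10.4%) were higher and 1393 (11.7%) lower at an adjusted p under 0.05 and a log2 fold change of 0.5 or more in either direction, and the median log2 fold change over all genes was 0.03. Scaling by library totals gave 1381 higher and 1298 lower, and thinning the cells to 2000 UMIs gave 639 and 719.

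Proteoglycans and fibre-forming collagens rose together. Of 8 small leucine-rich proteoglycans outside the rule, 6 were tested, 5 were higher and none was lower, with a median log2 fold change of 2.03. Bgn was at 1112, 1828 and 2488 CPM (lowest, median and highest) against 195, 496 and 865 CPM, a log2 fold change of 1.98 ± 0.09 (SE). Dcn was at 117, 169 and 278 CPM against 11.7, 24.5 and 35.2 CPM (2.92 ± 0.09). These groups did not overlap. Prelp, a proteoglycan that anchors basement membranes (58.9 to 126 against 6.80 to 23.2 CPM, log2 2.86 ± 0.11), Ogn, osteoglycin (2.08 ± 0.11), and Omd, osteomodulin (1.91 ± 0.24), rose as well. Fmod and Podn had at most 7 UMIs each in the matrix-rich cells and were not tested.

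Of 13 interstitial collagen genes, 9 were tested, 7 were higher and none was lower (median log2 1.64). The type VI collagen chains form microfibrils around cells. Col6a1 was at 594, 991 and 1126 CPM against 153, 204 and 279 CPM (log2 1.95 ± 0.08), Col6a2 at 339, 580 and 767 CPM against 52.4, 92.1 and 124 CPM (2.46 ± 0.09), and Col6a3 rose by 0.94 ± 0.07. Col3a1, the type III fibre collagen of soft tissue, was at 42.4, 231 and 550 CPM against 5.87, 41.6 and 120 CPM. Its levels by library are given with the genotypes. Basement membrane genes moved less, with 4 of 11 tested higher and 1 lower (Col18a1), at a median of 0.47. Among them Lama2, a laminin chain of muscle and nerve, rose by 2.74 ± 0.18, and Col4a1, type IV collagen, by 0.76 ± 0.07.

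Of 18 tested glycoprotein and elastic fibre genes, 14 were higher and 1 lower (Mfap5), at a median of 1.17. Fn1, fibronectin, was at 6221, 6839 and 7645 CPM against 2178, 3228 and 4554 CPM (log2 1.14 ± 0.06), and Eln, elastin, at 253, 486 and 790 CPM against 38.9, 165 and 307 CPM (1.78 ± 0.14). Mfap4, a microfibril-associated protein, had the largest change of the group (3.32 ± 0.09; 15.99, 40.9 and 71.2 against 2.03, 4.05 and 8.50 CPM). Spp1, osteopontin, rose by 0.65 ± 0.09. Enzymes that process collagen changed little, 4 of 13 being higher and 1 lower (median 0.33).

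Matrix-degrading enzymes and growth factor regulators were also among the genes that rose. Of 13 tested proteases and inhibitors, 9 were higher and 3 lower (median 0.97). Mmp3, stromelysin, was at 47.3, 321 and 711 CPM against 26.2, 104 and 293 CPM (log2 1.43 ± 0.10), Mmp2, a gelatinase, rose by 2.50 ± 0.13 and the serine protease Htra3 by 2.51 ± 0.09. The other gelatinase, Mmp9, went the other way, at 1.91, 6.13 and 7.28 CPM against 22.4, 37.4 and 48.7 CPM (-2.82 ± 0.09), as did Mmp10 and the inhibitor Timp1 (-0.69 ± 0.07). Of 13 growth factor genes and binding proteins, 10 were higher and 1 lower (Ltbp1), at a median of 0.72, with Igf1 the largest at 3.31 ± 0.20 from a low level (0.990, 3.70 and 17.2 against 0.0812, 0.413 and 1.77 CPM).

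Genes of innate defence and inflammation were part of the same set. Of 8 complement and acute phase genes 6 were higher and 1 lower (Lcn2), at a median of 1.24. They included C1s1, a protease of the classical complement pathway (1.31 ± 0.08). The largest rise over all named genes was that of Lbp, which presents bacterial lipopolysaccharide, at 54.1, 122 and 130 CPM against 5.71, 7.66 and 17.2 CPM (log2 3.36 ± 0.12). Il33, a nuclear cytokine of stromal and epithelial cells, was at 175, 242 and 425 CPM against 21.9, 38.5 and 43.0 CPM (2.85 ± 0.11), and Cyp1b1, a cytochrome P450 of steroid and retinoid metabolism, rose by 2.74 ± 0.10. Of 10 genes of inflammatory cancer-associated fibroblasts 6 were higher and 1 lower (Cxcl1), with Dpt at 2.45 ± 0.10 and Pdgfra, a receptor for platelet-derived growth factor, at 1.26 ± 0.06. Of 4 tested myofibroblast genes 1 was higher (Pdgfrb, 1.47 ± 0.08) and 2 lower, among them the tropomyosin Tpm2 (-1.10 ± 0.04). Interferon-induced genes rose in 7 of 15 cases (median 0.50), with Ifit3 at 1.07 ± 0.08 and Gbp2 at 0.67 ± 0.06, and immediate early genes in 4 of 11 (median 0.30).

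Proliferation genes outside the rule were low. All 19 S phase genes tested were lower (median log2 -2.24), as were all 13 mitotic genes tested (median -2.59). The rule had removed cells by 6 other mitotic genes from both sets of cells alike. Mki67, the proliferation marker, was at 0.511, 3.70 and 11.8 CPM against 38.8, 50.7 and 93.0 CPM (-3.25 ± 0.17). Mcm6, a subunit of the replicative helicase, was at 9.19, 19.8 and 29.7 CPM against 113, 147 and 184 CPM (-2.94 ± 0.11). The ranges of both genes were far apart, and the genes that fell most, Pclaf (-3.80 ± 0.18), Mybl2, Cdc6, Tk1, Dscc1, Knl1, Rad51ap1, 1700012B09Rik (-3.54 ± 0.17), Ccna2 and Pbk, are, 1700012B09Rik aside, also known for DNA replication or cell division.

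Hypoxia and glycolysis genes split. Of 16 tested, 7 were lower and 2 higher (median -0.45). The glycolytic enzyme gene Pgk1 was at 131, 225 and 418 CPM against 383, 487 and 665 CPM, and Gapdh fell by 0.72 ± 0.04 on the log2 scale. Adm, encoding the vasodilator adrenomedullin, was at 40.1, 103 and 149 CPM against 20.0, 37.7 and 79.4 CPM, and Vegfa, the vascular growth factor, at 37.6, 50.9 and 93.8 CPM against 18.7, 30.4 and 62.5 CPM. Both were higher in matrix-rich cells in 9 of 9 libraries, although both are known hypoxia targets. Of 6 tested lipid carrier genes 1 was higher, Apod (2.22 ± 0.10), and 2 lower, among them Fabp5 (-1.47 ± 0.07).

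The same genes changed step by step below the limit. With tumour cells sorted into 6 bins of score, Bgn had means over libraries of 89.0, 203, 598, 1134, 1663 and 1889 CPM from score 0 to the top bin. Fn1 went from 1288 to 7070 CPM, Dcn from 5.44 to 222 CPM and Pdgfra from 46.3 to 211 CPM. Mcm5, a helicase subunit, went from 85.01 to 4.14 CPM and Top2a, a topoisomerase of dividing cells, from 129 to 7.68 CPM. H2BMc stayed between 56.1 and 72.6 CPM in the 6 bins. Apart from H2BMc, the bin means of the genes named here thus kept their direction on both sides of the limit. Whether single cells were graded or a mix of high and low cells changed between bins was not tested. Bins share the rule's genes, so this is a description.

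**Figure D3:**
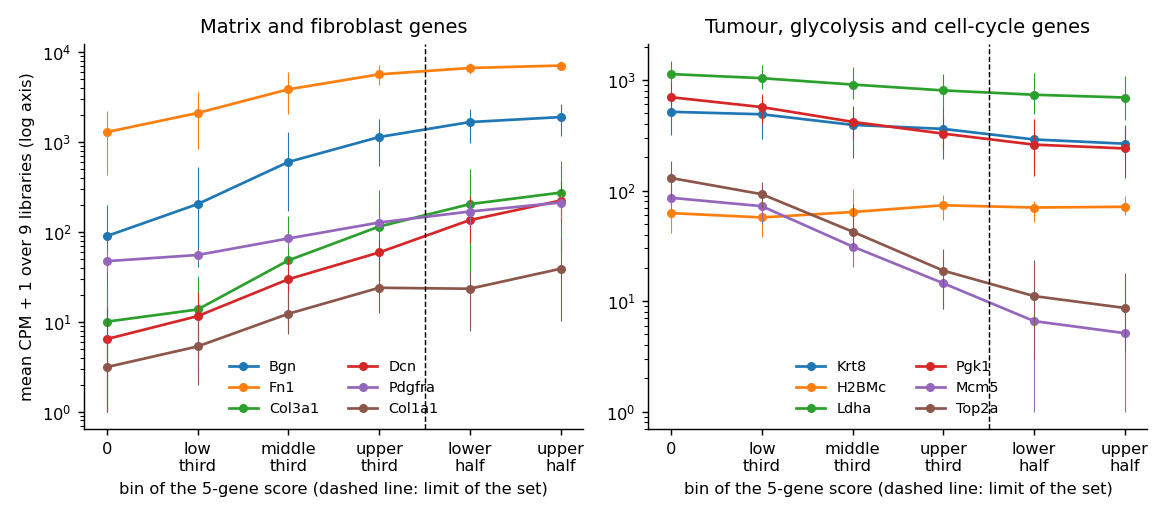
Mean level in CPM + 1 (log axis) over the 9 libraries of genes in 6 bins of tumour cells by 5-gene score, from score 0 to the top bin of matrix-rich cells, with vertical lines from the lowest to the highest library. Bgn climbs from 89.0 to 1889 CPM and Mcm5 drops from 85.01 to 4.14 CPM, while H2BMc stays between 56.1 and 72.6 CPM.

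Against reporter-negative fibroblasts of the same libraries (24 to 175 cells per library), 583 of 9587 genes (6.08%) were higher and 1293 (13.5%) lower in matrix-rich cells, the genes that defined either set left out. Against stricter fibroblasts, with at least 2 UMIs of type I collagen, 1058 were higher and 1334 lower. Col1a1 was detected in 58.8% of the reporter-negative fibroblasts and in 96.6% of the stricter ones, which the choice partly set. Clu was detected in 56.2 and 27.7%. Tumour cells in which no UMI of Krt8 or H2BMc was counted could also meet the definition of these fibroblasts. Their part in the comparator was not tested, nor was its makeup tested further. The list counts and levels that follow are against the first, wider set. Of 4 tested proteoglycans none was called in either direction, with Bgn at 1112 to 2488 CPM against 940 to 2408 CPM in the fibroblasts, and Prelp at 58.9 to 126 against 48.7 to 163 CPM. Of 8 tested interstitial collagens 6 were lower and none higher, led by Col12a1, a fibril-associated collagen, at 0 to 0.910 CPM against 11.8 to 497 CPM. Of 19 glycoproteins 14 were lower, among them Postn, periostin, at 0 to 5.62 against 54.9 to 659 CPM, and Spp1 was the single higher gene (log2 1.01 ± 0.12). Timp3, a metalloproteinase inhibitor held in the matrix, was at 0 to 0.396 CPM against 28.3 to 206 CPM. Dcn, left out of this test because it helped to define the fibroblasts, was at 117 to 278 CPM in matrix-rich cells against 297 to 1910 CPM. Part of that gap is thus set by the choice of fibroblasts, and 4 of 8 proteoglycans were tested.

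Genotypes were compared within the matrix-rich cells over 10921 genes in a single fit of 9 libraries. These cells differed between groups in their share of tumour cells and in the leading rule gene. The part of this in the calls was not tested. The contrasts share libraries, so their values are given side by side only. A gene was called at an adjusted p under 0.05. Kmt2c was at 68.7, 70.1 and 70.5 CPM in the WT libraries, 54.9, 57.0 and 64.6 CPM in Kmt2c KO and 73.6, 76.3 and 70.6 CPM in Kmt2d KO (Kmt2c KO against WT, log2 -0.19 ± 0.09, adjusted p = 0.197). Kmt2d was at 26.3, 17.1 and 17.4 CPM in WT, 28.8, 23.2 and 30.5 CPM in Kmt2c KO and 31.9, 37.9 and 33.3 CPM in Kmt2d KO, where it was called higher than in WT (log2 0.75 ± 0.16, adjusted p = 0.0261). That call was lost under 7 of 19 alternatives, and without Kmt2d KO library 2 it stood at 0.71 ± 0.15 (adjusted p = 0.00526). Guide-induced insertions and deletions need not lower the RNA, so these levels check no label. Kdm6a, a histone demethylase that acts with both proteins, was not called in Kmt2c KO (log2 -0.34 ± 0.12, adjusted p = 0.082) or Kmt2d KO (0.01 ± 0.12, adjusted p = 0.99).

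Kmt2c KO against WT gave the most calls. In matrix-rich cells 959 genes (8.78%) were higher and 775 (7.1%) lower, at a median log2 fold change over all genes of -0.00. Scaling by library totals in place of TMM turned this split to 786 higher and 1037 lower. Without Kmt2d KO library 2, which is in neither group but sets the shared spread, there were 1399 and 1229. Without WT library 1, 2 or 3 or Kmt2c KO library 2 the calls in all were 1077, 945, 1145 and 1013, and with cells thinned to 2000 UMIs they were 564. When the top 15% of cells were taken within each library, the calls numbered 1274.

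Interferon-induced, complement and hypoxia genes were higher in Kmt2c KO. Of 15 tested interferon-induced genes 14 were higher and none lower (median log2 2.79). Isg15, a ubiquitin-like protein, was at 156, 115 and 174 CPM in WT, 680, 886 and 1025 CPM in Kmt2c KO and 195, 653 and 192 CPM in Kmt2d KO (Kmt2c KO against WT, 2.61 ± 0.41, adjusted p = 0.00136). Of 8 complement and acute phase genes 6 were higher and none lower (median 5.16). C3, the central complement component, was at 2.67, 3.47 and 2.55 CPM in WT, 175, 288 and 391 CPM in Kmt2c KO and 30.3, 328 and 29.3 CPM in Kmt2d KO (6.59 ± 1.09, adjusted p = 0.0019). For both genes every Kmt2c KO library and Kmt2d KO library 2 stood above all the other libraries. Cfb, Saa3 and Lcn2, at 0 to 0.770 CPM in WT, reached 19.1 to 25.2, 10.9 to 42.6 and 13.9 to 29.6 CPM in Kmt2c KO. Ly6a, a surface protein also used as a stem cell marker, went from 51.1 to 73.4 CPM in WT to 2042 to 3469 CPM in Kmt2c KO (5.49 ± 0.86, adjusted p = 0.00138). Ly6a, its relative Ly6c1, Gbp2, Gbp10 and Saa3 belong to families of similar genes, whose reads the counting could split.

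Of 16 hypoxia and glycolysis genes 12 were higher and none lower in Kmt2c KO (median 0.88). Gapdh was at 348, 323 and 419 CPM in WT and 467, 529 and 522 CPM in Kmt2c KO (0.54 ± 0.12, adjusted p = 0.00836). Proliferation genes were called higher in 6 of 17 S phase cases and 4 of 8 mitotic cases, with none lower. Mcm6 was at 12.2, 11.4 and 9.19 CPM in WT and 29.7, 16.2 and 19.8 CPM in Kmt2c KO (1.00 ± 0.22, adjusted p = 0.00907). Macrophage markers moved with this genotype in the same cells, summing to 14.4 to 28.1 CPM in WT, 57.9 to 98.6 CPM in Kmt2c KO and 21.47 to 62.5 CPM in Kmt2d KO. The highest member in Kmt2c KO was Cd74, an antigen presentation gene that interferon induces (4.58 to 10.7 CPM in WT and 41.5 to 59.98 CPM in Kmt2c KO), and C1qb went without overlap from 1.54 to 2.29 CPM in WT to 3.55 to 6.93 CPM in Kmt2c KO. C1qa was at 1.54 to 3.82 CPM and 3.55 to 8.31 CPM, Lyz2 at 4.43 to 9.19 CPM and 5.16 to 19.8 CPM, Cd68 at 0.770 to 3.57 CPM and 1.52 to 3.17 CPM, and Csf1r did not exceed 0.955 CPM in any group. The part of macrophage RNA in these calls was not tested.

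Matrix genes moved in both directions in Kmt2c KO. Of 9 interstitial collagens 5 were lower and 1, Col16a1, higher (median -0.57). Col3a1 was at 550, 447 and 473 CPM in WT, 64.9, 42.4 and 56.9 CPM in Kmt2c KO and 231, 57.1 and 238 CPM in Kmt2d KO (Kmt2c KO against WT, -3.12 ± 0.37, adjusted p = 0.000257). Col6a1 was at 1126, 991 and 1081 CPM in WT and 601, 652 and 594 CPM in Kmt2c KO (-0.73 ± 0.11, adjusted p = 0.000978). The ranges did not overlap for either gene. Of 5 proteoglycans 3 were lower (Ogn, Omd and Prelp) and Bgn higher, at 1167, 1157 and 1112 CPM in WT and 1828, 2287 and 1535 CPM in Kmt2c KO (0.78 ± 0.13, adjusted p = 0.00219). The Bgn call was lost when the top 15% of cells were taken within each library. Scaled by library totals, Col3a1, Col6a1, Ogn and Bgn kept direction and call. Glycoproteins were split, with 3 of 20 higher, among them Eln (1.24 ± 0.18, adjusted p = 0.000932), and 4 lower, among them Efemp1, a fibulin. Serpinh1, the collagen chaperone, was at 302, 312 and 323 CPM in WT and 122, 129 and 93.6 CPM in Kmt2c KO (-1.38 ± 0.24, adjusted p = 0.00229). The chaperone thus fell in the cells in which most called collagens fell. The sum of the fibroblast markers was 940 to 1079 CPM in WT and 424 to 514 CPM in Kmt2c KO.

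Mmp3, the protease at the centre of the study, was at 47.3, 74.1 and 55.7 CPM in WT, 641, 711 and 585 CPM in Kmt2c KO and 273, 481 and 321 CPM in Kmt2d KO. No library of either knockout overlapped WT. The log2 fold change was 3.49 ± 0.22 in Kmt2c KO (adjusted p = 6.5e-06) and 2.58 ± 0.22 in Kmt2d KO (adjusted p = 7.17e-05), and both calls held under all 19 alternatives. Without Kmt2d KO library 2 the Kmt2d KO value was 2.28 ± 0.14 (adjusted p = 4.31e-09). Mmp13, a collagenase, had no UMI in the WT libraries and was at 11.5, 24.7 and 3.55 CPM in Kmt2c KO and 0.716, 3.61 and 1.73 CPM in Kmt2d KO. In other tumour cells Mmp3 was at 26.2 to 36.7 CPM in WT, 162 to 293 CPM in Kmt2c KO and 95.6 to 128 CPM in Kmt2d KO, so the order of the genotypes was the same at a lower level.

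Among the genes with the largest changes in Kmt2c KO, Slurp1, a secreted Ly6 family protein, went from 0 to 0.763 CPM in WT to 48.8 to 67.8 CPM. Apod, apolipoprotein D, rose by 2.34 ± 0.26 (adjusted p = 0.000191) and Ptgs2, the inducible cyclooxygenase, by 2.43 ± 0.25 (adjusted p = 0.000119). Igf1, at 17.2, 12.3 and 11.7 CPM in WT, was at 2.43, 0.990 and 1.78 CPM (-2.99 ± 0.31, adjusted p = 0.000128). Gm364, E330013P04Rik, Dtna, Mob3b, Gm12415, Prss23 and Renbp fell by 2.43 to 6.52.

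Kmt2d KO against WT gave fewer calls, with 169 genes (1.55%) higher and 170 (1.56%) lower and a median over all genes of 0.01. Without Kmt2d KO library 2 there were 433 and 480, and without WT library 1, 2 or 3 or Kmt2d KO library 1 or 3 the calls in all were 153, 115, 154, 217 and 149. With cells thinned to 2000 UMIs there were 97, and with the top 15% of cells taken within each library there were 241. Of 5 proteoglycans 1 was higher and 2 lower (median -0.59), and of 9 interstitial collagens 1 was higher and 2 lower (median 0.02). The sum of the fibroblast markers was 940 to 1079 CPM in WT and 573 to 720 CPM in Kmt2d KO. Bgn was at 2488, 2043 and 2381 CPM in Kmt2d KO (1.02 ± 0.13, adjusted p = 0.00147). Ogn was at 149, 103 and 133 CPM in WT and 27.7, 46.9 and 40.1 CPM in Kmt2d KO (-1.79 ± 0.17, adjusted p = 0.00027). Neither gene overlapped WT in any Kmt2d KO library, and both calls held under all 19 alternatives (without library 2, Bgn 1.08 ± 0.12 and Ogn -1.87 ± 0.15). Col3a1 was called lower (-1.43 ± 0.34, adjusted p = 0.0392), but the call was lost under 11 of 19 alternatives. Without library 2 it was -1.07 ± 0.12 (adjusted p = 6.35e-06). Col6a1 was not called (-0.20 ± 0.11, adjusted p = 0.386), nor without library 2 (-0.09 ± 0.09, adjusted p = 0.59).

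Thsd4, a thrombospondin-domain protein of microfibrils, was at 12.98, 10.6 and 8.68 CPM in WT and 76.0, 25.2 and 84.0 CPM in Kmt2d KO (2.64 ± 0.33, adjusted p = 0.00111). It was higher in all Kmt2d KO libraries than in WT, and lowest of them in library 2. Ccn5, a matricellular protein, was at 50.8, 70.1 and 35.7 CPM in WT and 13.01, 9.02 and 8.41 CPM in Kmt2d KO (-2.41 ± 0.26, adjusted p = 0.000445). Setbp1 (-2.73 ± 0.32), Dkk2, a Wnt antagonist (-2.27 ± 0.32), Sema3c, a guidance cue (-2.24 ± 0.35), Cavin2, a caveolar protein, Ptar1 and Angptl7 also fell, and Tinagl1 rose (1.83 ± 0.22). Without library 2 all of these calls held, with Thsd4 at 2.87 ± 0.13, Ccn5 at -2.44 ± 0.23, Setbp1 at -2.92 ± 0.27, Dkk2 at -2.54 ± 0.20, Sema3c at -2.49 ± 0.26 and Tinagl1 at 1.83 ± 0.23.

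The interferon and complement values of Kmt2d KO moved with library 2. Of 15 interferon-induced genes 1, Bst2, was called higher (median 1.22), and without the library 6 were, at a median of 0.48. Isg15 was not called with it (1.22 ± 0.40, adjusted p = 0.13) or without it (0.40 ± 0.15, adjusted p = 0.123). Gbp2 was at 1.65 ± 0.62 with the library (adjusted p = 0.196) and 0.05 ± 0.16 without it (adjusted p = 0.904). C3 was called higher both ways, at 5.21 ± 1.14 with it (adjusted p = 0.0275) and 3.26 ± 0.40 without it (adjusted p = 2.65e-05), and Ly6a at 3.41 ± 0.80 (adjusted p = 0.0373) and 1.24 ± 0.17 (adjusted p = 9.03e-05). The values thus shrank for every one of these 4 genes when the library was left out. Slpi, a secreted protease inhibitor, rose by 1.69 ± 0.37 (adjusted p = 0.0275), a call lost under 6 of 19 alternatives, and by 1.02 ± 0.19 without the library (adjusted p = 0.00178).

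The direct comparison of the knockouts found 328 genes (3%) higher and 416 (3.81%) lower in Kmt2d KO than in Kmt2c KO. Scaling by library totals turned this to 437 higher and 336 lower. The count of 744 became 468 without WT library 2, 348, 109 and 198 without Kmt2c KO library 1, 2 or 3, and 130, 2178 and 47 without Kmt2d KO library 1, 2 or 3. It was 23 when the top 15% of cells were taken within each library, so the list depends on how the cells are chosen. Collagens were the higher in Kmt2d KO, with 5 of 9 interstitial collagens called (median 0.53) and none lower. Grem1, a secreted antagonist of bone morphogenetic proteins, was at 19.2, 20.4 and 20.4 CPM in Kmt2d KO and 3.94, 5.74 and 5.63 CPM in Kmt2c KO (1.88 ± 0.20, adjusted p = 0.000748), and Srpx2, Fam180a, Thsd4, Dtna, Rflnb and Socs2 were higher too. Slurp1 was lower (-4.38 ± 0.37, adjusted p = 0.000158), as were Ptgs2 (-3.03 ± 0.23, adjusted p = 9.12e-05), the class II antigen presentation gene H2-Ab1 (-2.20 ± 0.26, adjusted p = 0.00177) and the chemokines Cxcl1, Cxcl5 and Cxcl10. Mmp3 was lower by -0.91 ± 0.20 (adjusted p = 0.0202), a call lost under 6 of 19 alternatives. Without library 2 the values were 1.87 ± 0.20 for Grem1, -4.86 ± 0.20 for Slurp1, -3.09 ± 0.23 for Ptgs2, -2.37 ± 0.21 for H2-Ab1 and -1.18 ± 0.13 for Mmp3, all called. Interferon-induced genes were lower in 8 of 15 cases with library 2 and in 15 of 15 without it, and hypoxia and glycolysis genes in 9 of 16 and 15 of 16.

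**Figure D4:**
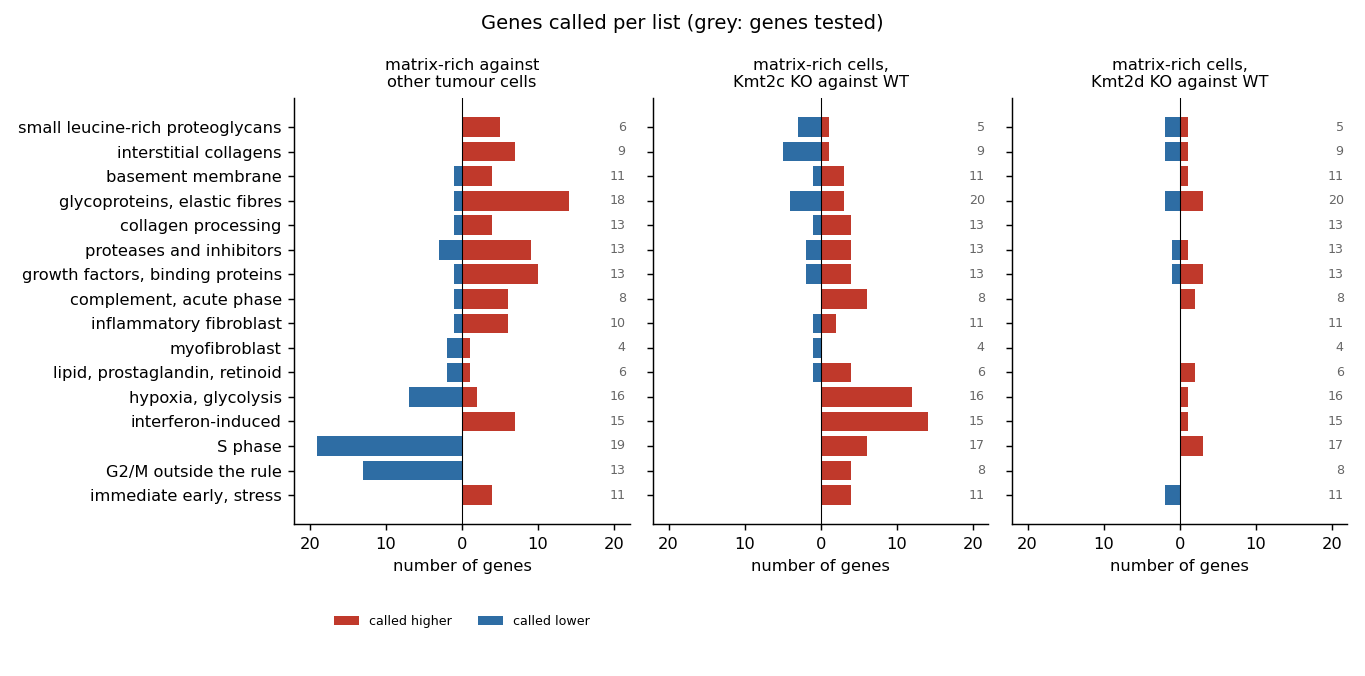
Number of genes called higher (right) and lower (left) in each gene list for matrix-rich against other tumour cells, Kmt2c KO against WT and Kmt2d KO against WT, with the number tested in grey. In matrix-rich cells all 19 S phase genes are lower and 14 of 18 glycoproteins higher, and in Kmt2c KO 14 of 15 interferon-induced genes are higher.

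**Figure D5:**
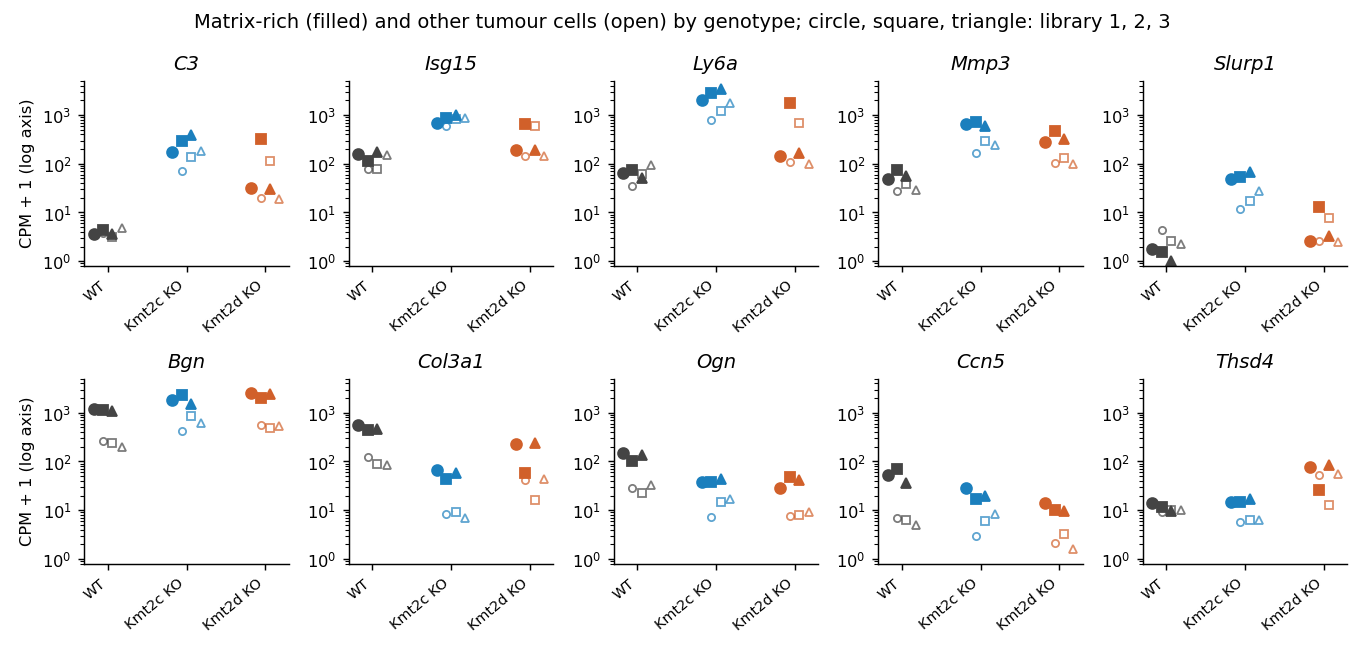
Level in CPM (log axis) of 10 genes by genotype in each library, filled points for matrix-rich and open points for other tumour cells. Mmp3 lies at 47.3 to 74.1 CPM in WT matrix-rich cells and 585 to 711 CPM in Kmt2c KO, and Kmt2d KO library 2 lies with Kmt2c KO for C3, Isg15, Ly6a and Col3a1.

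A last comparison asked whether the difference between matrix-rich and other tumour cells itself depended on genotype. For Kmt2c KO against WT it was greater in 215 of 11864 genes (1.81%) and smaller in 198 (1.67%). Scaling by library totals turned this to 158 and 252, and without Kmt2d KO library 2 there were 358 and 304. For Kmt2d KO against WT it was greater in 51 genes (0.43%) and smaller in 33 (0.278%), and without the library 173 and 142. With cells thinned to 2000 UMIs the calls in all were 18 for Kmt2c KO and 6 for Kmt2d KO. Greater here means a more positive log2 fold change. Of 19 tested S phase genes, all lower in the matrix-rich cells, 8 were less far below the other tumour cells in Kmt2c KO than in WT (median difference 0.80) and 5 in Kmt2d KO (median 0.68), and none was called further below.

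Matrix genes moved both ways in Kmt2c KO tumours. The difference was smaller for 4 of 18 glycoproteins (median -0.12), 2 of 6 proteoglycans (median -0.37) and 2 of 9 interstitial collagens (median -0.27), with 1 collagen, Col3a1, greater (0.63 ± 0.16, adjusted p = 0.0298), and it was greater for 2 of 13 collagen processing genes, Pcolce2 and Loxl3 (median -0.03). Eln was at 321, 253 and 313 CPM in WT matrix-rich cells against 38.9, 53.2 and 60.5 CPM in the other tumour cells. In Kmt2c KO it was at 758, 615 and 630 CPM against 241, 248 and 307 CPM (difference of log2 fold changes -1.14 ± 0.17, adjusted p = 0.000528). Eln thus rose in both kinds of cells, and by a larger fold change in the others. Spp1 (-0.72 ± 0.09, adjusted p = 0.00013), Fn1 (-0.48 ± 0.08, adjusted p = 0.00184) and Col6a1 (-0.63 ± 0.11, adjusted p = 0.00175) also had a smaller difference between the cell sets, although Col6a1 was lower in matrix-rich cells of Kmt2c KO than of WT and Eln higher. Igfbp6, a binding protein of insulin-like growth factors, went the other way. In WT it was at 77.9, 59.1 and 61.8 CPM against 65.8, 64.0 and 59.99 CPM, and in Kmt2c KO at 151, 163 and 150 CPM against 64.6, 71.2 and 73.1 CPM (1.16 ± 0.10, adjusted p = 6.73e-07, held under all 18 alternatives). In Kmt2c KO its matrix-rich cells stood above all WT libraries, while the other tumour cells were at 59.99 to 73.1 CPM in both groups. In Kmt2d KO the difference was 0.65 ± 0.10 (adjusted p = 0.0028). For Mmp3 the difference was not called in Kmt2c KO (0.59 ± 0.18, adjusted p = 0.086) or Kmt2d KO (0.73 ± 0.18, adjusted p = 0.0716), and without Kmt2d KO library 2 it passed in Kmt2c KO (0.58 ± 0.17, adjusted p = 0.0424).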

How the data were processed

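Suspensions of primary tumours grown from injected WT, Kmt2c KO or Kmt2d KO cells were profiled, with 3 libraries per group. The deposited matrix holds UMI counts per gene and barcode, which the authors made with Cell Ranger 7.0.1 (count and aggregation, build mm10 per the submitters' processing notes). Neither the annotation nor any equalising of depth at aggregation was stated in the sources used. Libraries were read from barcode suffixes and groups from the genotype letter of the aggregation table. Letter X was taken to mean WT, C the Kmt2c knockout and D the Kmt2d knockout because the study labels its comparisons that way, an inference on which every genotype result depends. The table does not tie libraries to replicate numbers.

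Cells had more than 500 and fewer than 7500 genes and under 15% mitochondrial UMIs, the study's limits. UMIs were summed per library and cell set and tested with edgeR 4.0.16 (filterByExpr, TMM, quasi-likelihood, Benjamini-Hochberg, adjusted p under 0.05; for cell sets also a log2 fold change of 0.5 or more in size, with library as block). SE is the log2 fold change divided by the square root of F. Single values used exact permutation or sign-flip tests, two-sided except the Kruskal-Wallis statistic. The fits were tested on simulated data. For a true log2 change of 1 they recovered 100% between cell sets, 56% for Kmt2c KO against WT and 10% for the difference by genotype. For a change of 2 they recovered 100, 100 and 97%. Differences by genotype that were not called may thus have been missed. Tools were R 4.3.3, DESeq2 1.42.0 (an alternative) and Python 3.11.15. Alternatives changed the cell choice, thinning, filter, scaling, test and libraries. Alternatives for the fibroblast comparator and for leaving libraries out of the per-cell measures were added after seeing the data.

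Members, gene lists and tests were chosen with earlier results of these data known. Named genes were the most expressed tested genes of each list and its largest called change, the called genes of largest change with a mean of at least 10 CPM and the same direction in every library (cell sets) or no overlap between the groups (genotypes), and Kmt2c, Kmt2d, Kdm6a and Mmp3. Marker genes and other list members that a statement turns on were named after their values were seen. Some genes named by the rule are not reported here. Depth per library was 1663866 to 16165657 UMIs in matrix-rich cells.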

Additional observations from a re-analysis of the deposited data

Results flagged for a closer look

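The difference between matrix-rich and other tumour cells was greater or smaller in a knockout than in WT, by the edgeR test of the interaction, for the genes named below. Each value is a difference of log2 fold changes, knockout minus WT.

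Cell-cycle genes, which were low in matrix-rich cells of every group, were less far below the other tumour cells in the knockouts. In Kmt2c KO the differences were 4.06 for Cdc6, 3.12 for Dscc1, 2.77 for Mcm5 and 2.28 for Mki67, and in Kmt2d KO they were 3.06 for Dscc1, 2.89 for Mcm5, 2.37 for Mki67 and 2.20 for Pclaf. These values rest on few molecules, since the matrix-rich cells of the WT libraries held 3, 9 and 1 UMIs of Mki67, 0, 6 and 3 of Mcm5, 1, 0 and 0 of Cdc6 and 1, 0 and 2 of Dscc1. Of 18 alternatives, 10 lost the call of Cdc6 and 11 that of Dscc1 in Kmt2c KO, and 13 lost that of Dscc1 and 12 that of Pclaf in Kmt2d KO.

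The chemokine gene Ccl5 had a difference of 2.34 in Kmt2c KO and 2.63 in Kmt2d KO. It was at 7.95, 28.2 and 195 CPM in the other tumour cells of the WT libraries, so a single WT library set most of that level, and the sign turned when the top 20% of cells were taken.

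Rarres2, the chemoattractant chemerin, was at 282, 282 and 295 CPM in WT matrix-rich cells against 28.6, 37.7 and 29.9 CPM in the others, and the difference was smaller by -1.44 in Kmt2c KO and -1.04 in Kmt2d KO. In Kmt2c KO the difference was also smaller for Angptl7 (-1.70), Tmem64 (-1.47), the protease inhibitor Slpi (-1.36) and Rflnb, a filamin regulator (-1.33). The calls of Rarres2 and Tmem64 in Kmt2c KO held under all 18 alternatives. In Kmt2d KO it was smaller for Cavin2 (-0.99), Gm12648 (-0.97), the cell-cycle regulator Rgcc (-0.81) and the stromal metalloproteinase Mmp11 (-0.80), the last of which lost its call under 9 of 18 alternatives.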

How the results depend on the processing

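No paired analysis was possible because the tables do not tie libraries to replicate numbers. Depth limits genes under a few CPM, since matrix-rich cells of WT held few UMIs. Calls of matrix-rich against other tumour cells numbered 2621 and, without each library in turn, 2603 to 2762. Genes called both ways had the same sign under every alternative in the comparisons of tumour cells, while 1 of 1252 had the opposite sign against stricter fibroblasts (at least 2 type I collagen UMIs), which gave 1058 higher and 1334 lower.

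With cells thinned to 2000 UMIs the calls were 1358 against other tumour cells, 564 for Kmt2c KO against WT (1734 as reported), 97 for Kmt2d KO against WT (339), 471 between the knockouts (744), and 18 (413) and 6 (84) for the differences by genotype in Kmt2c KO and Kmt2d KO. Requiring both H2BMc and Krt8 gave 903, 120, 442, 215 and 28 in the last 5. The top 15% within each library gave 23 between the knockouts and 203 and 35 for the differences by genotype. DESeq2 gave 402 between the knockouts and 48 for the difference in Kmt2d KO. With no low-count filter there were 893 for Kmt2d KO against WT, 1403 between the knockouts and 244 for the difference in Kmt2d KO. Fitting the libraries of the compared groups alone gave 197 for Kmt2d KO against WT and 192 between the knockouts. Without the 5% of cells with most UMIs the difference in Kmt2c KO had 267.

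Leaving out each library gave 945 to 2628 calls for Kmt2c KO against WT, 115 to 913 for Kmt2d KO against WT, 47 to 2178 between the knockouts, and 184 to 662 and 17 to 315 for the differences by genotype, the highest always without Kmt2d KO library 2. For the differences by genotype, leaving out WT library 1, 2 or 3 gave 230, 184 and 236 in Kmt2c KO and 31, 25 and 36 in Kmt2d KO, Kmt2c KO library 2 or 3 gave 220 and 204, and Kmt2d KO library 3 gave 17. The p of the share of matrix-rich cells ran, without each library in turn, from 0.025, again without that library, to 0.221, and was 0.296 with both H2BMc and Krt8 required (exact permutation test). The cause of these moves was not tested.

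Of the named genes, 4 values changed sign where the gene was called in the reported fit or in the alternative. Sign changes of genes called in neither fit were not counted. The difference by genotype of Ccl5 became -1.38 in Kmt2c KO and -1.33 in Kmt2d KO with the top 20% of cells, that of Hmgb2 in Kmt2c KO became -0.17 with thinned cells, and Ltbp2 became 0.94 against the stricter fibroblasts. The cause was not tested.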
